A study of Mus musculus with 16 samples.

Results

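How the effect of baricitinib (BAR) on marrow CD8+ T cells changed between days was measured as an interaction: the BAR-minus-BMF difference at day 14 minus the same difference at day 10. It draws on all 16 of the 16 libraries, which make 4 groups by their treatment label. CD8+ T cells had been flow-sorted from bone marrow and sequenced as polyA RNA in bulk. BMF stands for bone marrow failure, in these models an immune attack on blood-forming cells. BMF-day10 (5 libraries) and BMF-day14 (3 libraries) came from BMF mice without the drug, 10 and 14 days after the failure was induced, and BAR-day10 (5 libraries) and BAR-day14 (3 libraries) from BMF mice given baricitinib, at the same days. Every group carries the marrow failure, healthy mice were not analysed here, and the sources used here do not give dose, mouse strain, sex or age. The series' design text speaks of pooled cells in each group, and nothing states that libraries of a group came from separate mice. The p-values therefore measure only how far these libraries spread, and part or all of that spread may be technical. The total count per library ran from 26066991 to 58659873.

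Baricitinib inhibits the kinases JAK1 and JAK2, which sit on cytokine receptors and phosphorylate STAT proteins. Type I interferons and interferon-gamma signal through these kinases, and so do interleukin-2, interleukin-12 and many other cytokines that drive CD8+ T cells to divide and to kill. Type I interferon acts mainly through a complex that contains IRF9 and binds interferon-stimulated response elements (ISRE), while much of the interferon-gamma response runs through the factor IRF1. In mouse models of immune marrow failure, interferon-gamma from T cells is a known mediator of the damage to blood-forming cells.

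Of 14862 genes tested with edgeR's quasi-likelihood test, the drug effect differed between the days for 1535 (10.3%) at a Benjamini-Hochberg adjusted p under 0.05. It moved upwards from day 10 to day 14 for 743 genes (5.0%) and downwards for 792 (5.33%). Called genes were sorted by the tests at each day, where 2145 genes (14.4%) were called at day 10, with 6.49% of all genes higher with BAR and 7.94% lower, and 3738 (25.2%) at day 14, with 12.9% higher and 12.2% lower. An effect that was called at both days with opposite signs was a reversal, and there were 84 (0.565%). Of these, 20 (0.135%) were lower with BAR at day 10 and higher at day 14, and 64 (0.431%) went the other way. In 1145 genes (7.70%) the effect grew, meaning that it was called at day 14 and larger there, upwards in 573 (3.86%) and downwards in 572 (3.85%). In 219 genes (1.47%) it faded, meaning that it was called at day 10 and larger there, with an upward interaction in 117 (0.787%) and a downward one in 102 (0.686%). The other 87 called genes (0.585%, 33 or 0.222% upwards and 54 or 0.363% downwards) met none of these definitions. Over all genes the median interaction was 0.020 on the log2 scale, and the median of its standard error (SE) was 0.20. The median drug effect over all genes was 0.0003 at day 10 and -0.0075 at day 14. The libraries of BMF and BAR did not overlap at day 10 in 7.91% of all genes and at day 14 in 43.3%. The sizes are interactions on the log2 scale throughout unless a day is named, and every adjusted p is from the edgeR test over all genes tested unless another tool is named. For comparison, 738 genes (4.97%) were called at both days, and for 572 of them (3.85%) the signs were the same and no interaction was called.

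**Figure D1:**
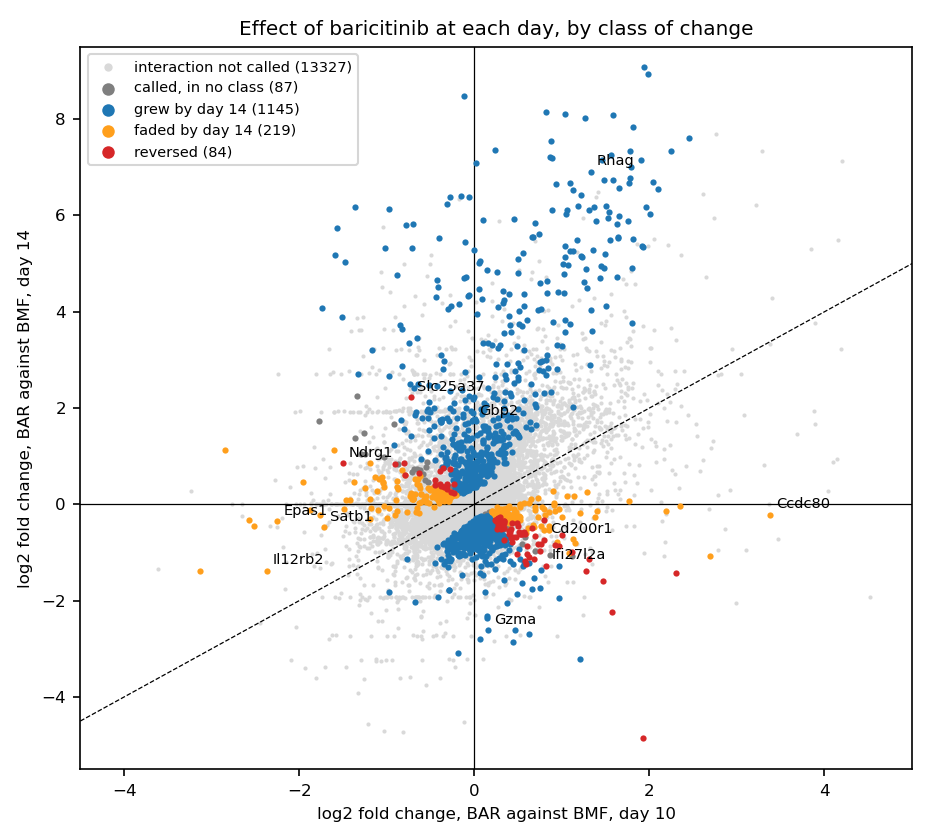
Each point is 1 of the 14862 genes tested (4 lie outside the axes), with the log2 fold change of BAR against BMF at day 10 on the x axis and at day 14 on the y axis. The dashed line marks equal effects, red points are the 84 reversals, blue points the 1145 effects that grew and orange points the 219 that faded; reversals lie in the upper left and lower right, and most of the far points are genes that grew upwards.

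How many genes were called depended on single libraries and on what else differed between them. The number ran from 679 without BMF-day14 replicate 2 to 2025 without BMF-day10 replicate 5, and was 846 without BMF-day14 replicate 1 and 827 without BAR-day14 replicate 2. In all 16 fits that left out a library, 566 genes (3.81%) were called with the same sign, 83 of them reversals. Precursor ribosomal RNA (Rn45s) took 1.15% to 5.81% of the counts in BMF-day10, 1.22% to 1.43% in BAR-day10, 1.70% to 2.52% in BMF-day14 and 0.714% to 2.38% in BAR-day14. With Rn45s as a covariate 1545 genes were called, among them all 84 reversals, and 5 genes met the definition of a reversal within that fit. Without the 3 BMF-day10 libraries richest in it, 413 genes were called and 66 of the 84 were among them. Within that fit 9 genes met the definition of a reversal. Without a scaling factor for composition the interaction was called upwards in 546 genes and downwards in 1241.

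The sorted cells were checked by marker genes summed per library in TMM-normalised CPM, which scales counts to a common library size. The 5 markers that define CD8 T cells were all present, at 4454 to 5519 CPM in BMF-day10, 3846 to 5537 in BAR-day10, 5972 to 7290.1 in BMF-day14 and 4827 to 5445 in BAR-day14. Markers of other cells were there too, and some moved with the groups. The 20 neutrophil markers summed to 2698 to 10112 CPM in BMF-day10, 4844 to 13973 in BAR-day10, 2918 to 23361 in BMF-day14 and 40645 to 53362 in BAR-day14. BMF-day14 replicate 1 was the lowest library of its group. Of these 20 genes 0 had an interaction called, with 0 at an unadjusted p under 0.05 and 0 by DESeq2 or limma voom. With the neutrophil list as a covariate 1068 genes were called. Of the 84 reversals 83 kept an interaction call, and 22 genes met the definition of a reversal within that fit. The 17 B cell and plasma cell markers summed to 585 CPM in BAR-day10 replicate 3 against 47.9 to 114 CPM in the rest of that group, and the 18 dendritic cell markers to 4398 CPM against 853 to 1099 CPM. Leaving out BAR-day10 replicate 3 together with BMF-day14 replicate 1 gave 902 calls. There 82 of the 84 reversals kept an interaction call, and 39 genes met the definition of a reversal. In bulk RNA, fewer cells of a type and less RNA per cell cannot be told apart.

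**Figure D2:**
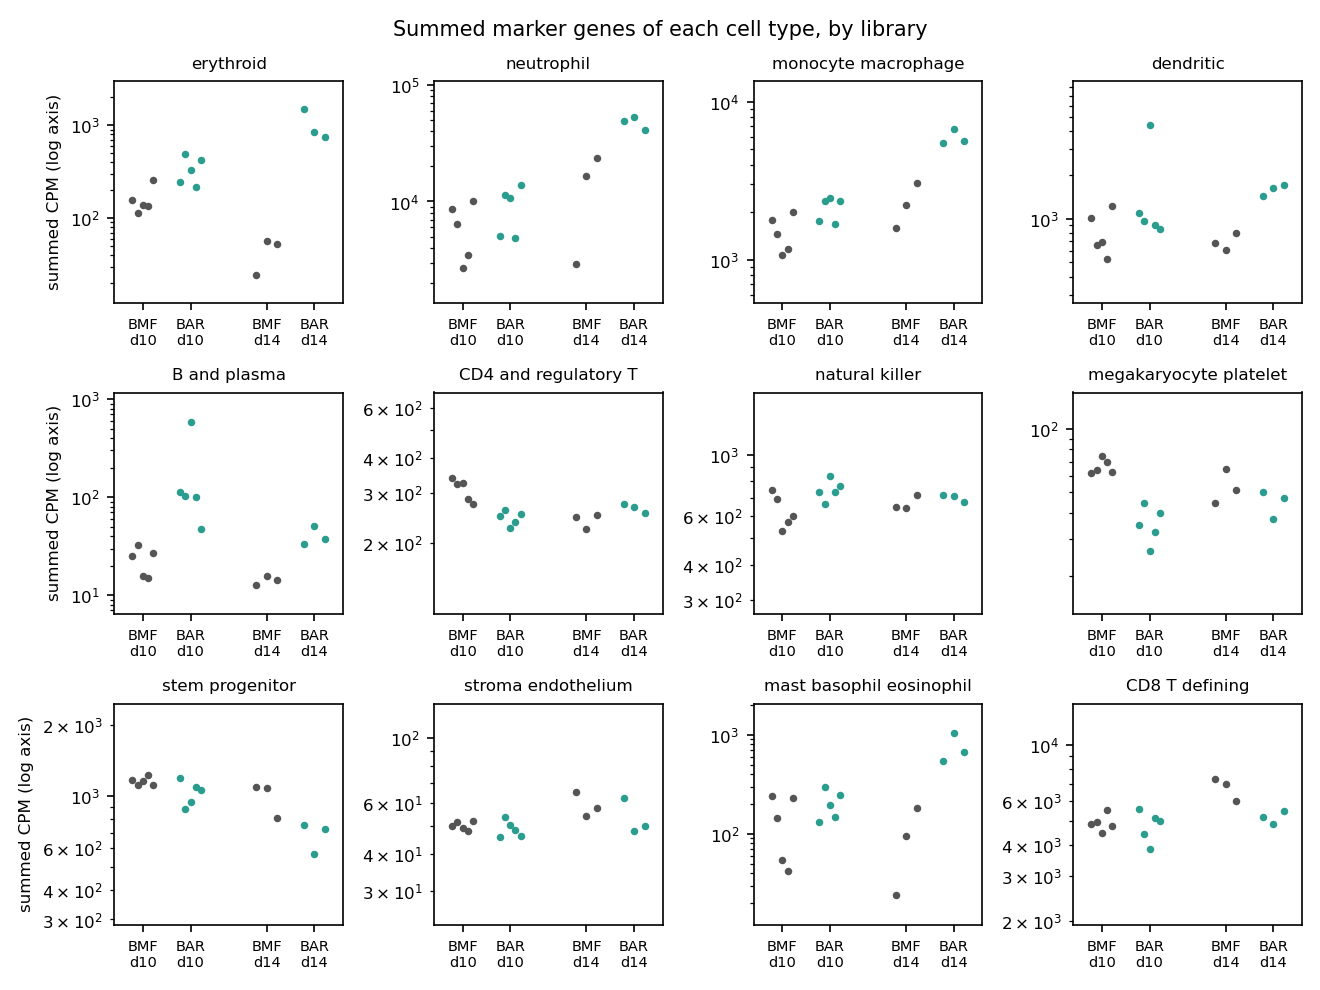
Each point is 1 library, and the y axis is the summed CPM of a cell type's marker genes on a log scale, with BMF in grey and BAR in green at day 10 (d10) and day 14 (d14). Neutrophil, erythroid, monocyte and mast cell sums are highest in the 3 BAR-day14 libraries, and BAR-day10 replicate 3 stands above its group for dendritic and B cell markers.

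Type I interferon-stimulated genes were mostly higher with the drug at day 10 and about evenly higher and lower at day 14. Of 59 members tested the drug effect moved downwards in 24 and upwards in 2 (44.1% called, against 10.3% of all genes). Their median effect was 0.51 at day 10 and 0.057 at day 14, on the log2 scale, and the median interaction was -0.46 against 0.020 over all genes. At day 10, 37 rose and 2 fell (6.49% and 7.94% of all genes did), and at day 14, 12 rose and 17 fell (12.9% and 12.2%). Of the 26 calls 10 were reversals (0.565% of all genes were), 9 had faded and 6 had grown. The downward count was 15 without BAR-day10 replicate 3 and BMF-day14 replicate 1, 21 with the neutrophil covariate and 24 with the Rn45s covariate.

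Several reversals lay in the Ifi200 family, a cluster of genes for DNA-sensing and PYRIN-domain proteins on chromosome 1. Pydc4 and Mnda reversed in opposite directions, so the promoters of this pair are shown, from 250 bases before to 50 after the start site in RefSeq (GRCm38.p6). RefSeq lists them as Ifi213 and Ifi211, matched through older symbols. Capitals mark the ISRE core, which reads GAAA, then NN, then GAAA (N is any base), searched on both strands.
Pydc4 (chr1:173599223-173599522, minus strand): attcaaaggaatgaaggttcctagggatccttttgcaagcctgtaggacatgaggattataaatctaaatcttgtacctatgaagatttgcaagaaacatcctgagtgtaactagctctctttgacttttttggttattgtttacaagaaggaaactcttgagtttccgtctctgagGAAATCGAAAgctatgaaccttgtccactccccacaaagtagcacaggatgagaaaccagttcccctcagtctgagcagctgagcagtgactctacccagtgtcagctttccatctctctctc
Mnda (chr1:173912997-173913296, minus strand): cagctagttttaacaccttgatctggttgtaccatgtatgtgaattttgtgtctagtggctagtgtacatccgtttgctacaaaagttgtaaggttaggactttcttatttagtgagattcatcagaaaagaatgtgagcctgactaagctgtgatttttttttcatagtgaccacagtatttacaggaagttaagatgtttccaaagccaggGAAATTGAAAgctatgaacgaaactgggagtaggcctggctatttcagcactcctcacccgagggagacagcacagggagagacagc
Both windows hold 1 such core, which begins 73 bases before the start site in Pydc4 and 37 bases before it in Mnda. Of all 32851 promoter windows 3.44% hold the core. Counted by gene, 3.95% of the 11746 tested genes with a promoter entry hold it in any of their windows. Of the 59 tested genes of the list 45 had a promoter entry, too few for a check over the list, and 24 of these (53.3%) held it. Among its 10 reversed genes 8 had an entry and 6 of these held it, while 0 of 8 held the STAT core TTCNNNGAA. That core is found in 8.30% of all windows and in 8.58% of the tested genes with an entry. A match is a description of the letters, not a binding site.

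Ifi27l2a, a small interferon-induced mitochondrial protein (chromosome 12, 103442167 to 103443680 in GRCm38), changed most among the downward reversals of the list. It stood at 403, 454, 297, 386 and 312 CPM in the 5 BMF-day10 libraries and at 655, 579, 637, 635 and 749 CPM in BAR-day10. At day 14 it stood at 411, 390.3 and 230.4 CPM in BMF and 146, 116 and 165 CPM in BAR. The arms did not overlap at either day, with every BAR library above BMF at day 10 and below it at day 14 (day 10 log2 0.81, SE 0.15; day 14 log2 -1.27, SE 0.20; interaction log2 -2.08, SE 0.25, adjusted p = 0.000481). Pydc4 went from 35.1, 36.5, 26.7, 33.95 and 24.6 CPM in BMF-day10 to 51.02, 50.8, 45.7, 51.5 and 53.1 CPM in BAR-day10. Its day 14 values were 39.7, 36.8 and 22.2 CPM in BMF and 13.9, 13.2 and 17.5 CPM in BAR, again with no overlap in either direction (log2 -1.83, SE 0.24, adjusted p = 0.000526). Its relatives Pydc3 (log2 -1.64, SE 0.23, adjusted p = 0.000718) and Pyhin1 (log2 -1.16, SE 0.16, adjusted p = 0.000671) reversed the same way.

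Mnda did the opposite of these relatives. It was at 24.9, 21.96, 31.8, 19.4 and 20.7 CPM in BMF-day10 and 15.4, 11, 13.96, 12.7 and 14.7 CPM in BAR-day10, and at 7.49, 8.26 and 7.55 CPM in BMF-day14 and 15.4, 12.8 and 14.02 CPM in BAR-day14. BMF fell below BAR between the days while BAR stayed within 11 to 15.4 CPM at day 10 and 12.8 to 15.4 CPM at day 14 (log2 1.66, SE 0.20, adjusted p = 0.000481). Ifi204, another member of the family, rose more at day 14 (log2 1.38, SE 0.32, adjusted p = 0.013). Reads could have been shared among these close relatives, so their values are uncertain. Monocytes and macrophages also express Mnda and Ifi204, and the monocyte and macrophage markers summed to 1066 to 1993 CPM in BMF-day10, 1675 to 2451 in BAR-day10, 1579 to 3046 in BMF-day14 and 5483 to 6699 in BAR-day14; their part in the result was not tested.

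Sensors of viral RNA were among the reversals. Dhx58, which encodes LGP2, a regulator of RNA sensing (chromosome 11, 100694884 to 100704271), was at 20.1, 21.4, 17.7, 17.5 and 17.96 CPM in BMF-day10 and 29.9, 31.5, 35.6, 32.6 and 34.3 CPM in BAR-day10. At day 14 it was at 23.6, 24.9 and 18.8 CPM in BMF and 16.99, 18.1 and 18.9 CPM in BAR, where 1 BAR library overlapped BMF. The rise at day 10 (log2 0.79, SE 0.087) was larger than the fall at day 14 (log2 -0.32, SE 0.11), and the interaction was called (log2 -1.11, SE 0.14, adjusted p = 0.000481). Ddx58, which encodes the RNA sensor RIG-I, also reversed (log2 -0.82, SE 0.13, adjusted p = 0.00123). So did Slfn8, a Schlafen family gene (log2 -1.08, SE 0.16, adjusted p = 0.000759), Lgals3bp, a secreted galectin-binding protein (log2 -0.95, SE 0.17, adjusted p = 0.00226), and Phf11a (log2 -1.21, SE 0.18, adjusted p = 0.000751), which has close copies that may share reads.

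For other interferon-stimulated genes the rise at day 10 faded without turning into a called fall. Irf7, the transcription factor that amplifies interferon responses, was at 92.5, 80.8, 55.5, 64.6 and 88.2 CPM in BMF-day10 and 141, 187, 192, 148 and 171 CPM in BAR-day10. At day 14 the arms overlapped, at 87.7, 86.7 and 93.9 CPM in BMF and 74.2, 122 and 106 CPM in BAR (interaction log2 -0.96, SE 0.24, adjusted p = 0.0207; adjusted p = 0.0504 without BMF-day14 replicate 2). Usp18, a protease that limits interferon receptor signalling, showed a smaller change (log2 -0.62, SE 0.19, adjusted p = 0.045), whose call was kept in 4 of 16 fits that left out a library; its highest adjusted p was 0.115, without BMF-day14 replicate 2. Xaf1, a pro-apoptotic interferon target (log2 -1.0, SE 0.17, adjusted p = 0.0019), Eif2ak2, which encodes the RNA-activated kinase PKR (log2 -0.79, SE 0.12, adjusted p = 0.00108), and Bst2, which encodes the virus-tethering protein tetherin (log2 -0.70, SE 0.17, adjusted p = 0.0139), faded as well. Mx1, an antiviral GTPase, differed in that its day 10 effect was not called (log2 0.063) and its day 14 fall was (log2 -1.42; interaction log2 -1.49, SE 0.35, adjusted p = 0.0155).

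**Figure D3:**
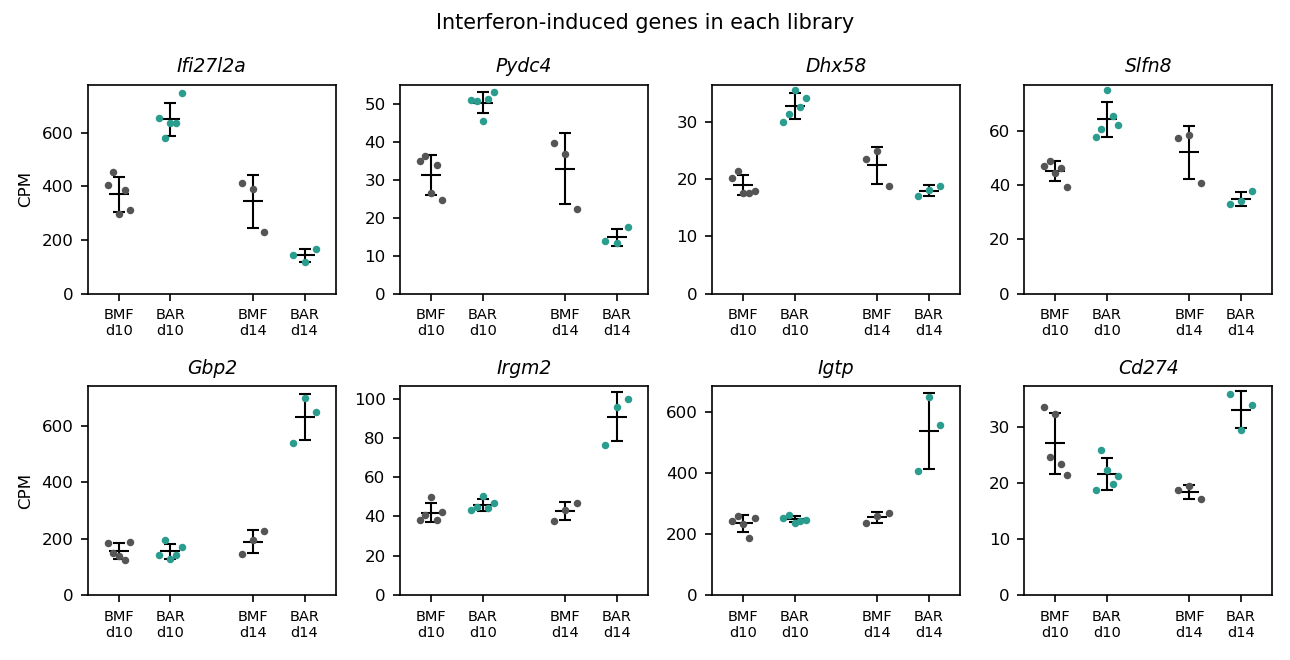
Points are CPM in single libraries, with group means and SD bars, for 4 type I interferon-stimulated genes (upper row) and 4 interferon-gamma-induced genes (lower row), BMF in grey and BAR in green. In the upper row BAR is above BMF at day 10 and below it at day 14, with 1 overlapping library for Dhx58; in the lower row the arms overlap at day 10 and BAR is above BMF at day 14.

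Among genes induced mainly by interferon-gamma most calls were upwards. Of 36 tested the drug effect moved upwards in 16 and downwards in 2 (50% called, against 10.3% of all genes), with a median effect of 0.028 at day 10 and 0.65 at day 14. Of the calls 14 had grown, 2 had reversed and 2 had faded. The upward count was 17 with the neutrophil covariate, 16 with the Rn45s covariate and 13 without BAR-day10 replicate 3 and BMF-day14 replicate 1. Ifng itself, the gene for interferon-gamma, was at 511, 362, 309, 248 and 257 CPM in BMF-day10 and 254, 212, 172, 247 and 214 CPM in BAR-day10, and at 184, 203 and 195 CPM in BMF-day14 and 355, 172 and 260.4 CPM in BAR-day14. The arms overlapped at both days and its interaction was not called (log2 1.05, SE 0.35, adjusted p = 0.0689), but was with DESeq2 (adjusted p = 0.0318) and without BMF-day10 replicate 4, BMF-day10 replicate 5 or BAR-day14 replicate 2 (adjusted p = 0.0468, 0.047 and 0.0368).

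Gbp2, a guanylate-binding GTPase that attacks vacuoles of intracellular microbes (chromosome 3, 142620602 to 142638008), had the smallest p of the list. It stood at 185, 149.9, 139, 125 and 186 CPM in BMF-day10 and 141, 194, 128, 141 and 169 CPM in BAR-day10, where the arms overlapped. At day 14 it stood at 147, 194 and 228 CPM in BMF and 540.2, 699.7 and 650.3 CPM in BAR, well apart (log2 1.75, SE 0.24, adjusted p = 0.000671). Its relatives Gbp2b (log2 2.31, SE 0.43, adjusted p = 0.00644), Gbp4 (log2 0.83, SE 0.16, adjusted p = 0.00386) and Gbp7 (log2 0.58, SE 0.11, adjusted p = 0.00485) grew with it, and Gbp3 reversed from lower to higher (log2 0.74, SE 0.14, adjusted p = 0.00414). Gbp10, which resembles Gbp6 closely enough to share reads, instead faded (log2 -1.03, SE 0.19, adjusted p = 0.0036). Immunity-related GTPases, which work beside the guanylate-binding proteins, were called too, with Igtp (log2 1.0, SE 0.17, adjusted p = 0.00205), Irgm2 (log2 0.96, SE 0.15, adjusted p = 0.00096) and Irgm1 (log2 0.65, SE 0.13, adjusted p = 0.00447) growing upwards.

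Chemokines and a checkpoint ligand of the same list also gained at day 14. Cxcl9 (log2 1.70, SE 0.27, adjusted p = 0.00116) and Cxcl10 (log2 1.18, SE 0.30, adjusted p = 0.0198), which attract T cells through CXCR3, grew upwards. Cd274, which encodes PD-L1, was at 21.5 to 33.7 CPM in BMF-day10 and 18.8 to 25.97 CPM in BAR-day10. At day 14 it was at 18.8, 19.5 and 17.2 CPM in BMF and 35.95, 29.6 and 34.05 CPM in BAR, with no overlap (log2 1.17, SE 0.20, adjusted p = 0.00165). Casp4, the mouse caspase-11 that senses lipopolysaccharide, reversed from 33.6 ± 3.58 against 24.7 ± 1.36 CPM (BMF against BAR, SD, n = 5 each) at day 10 to 23.4 ± 1.72 against 31.1 ± 2.17 CPM (n = 3 each) at day 14 (log2 0.85, SE 0.13, adjusted p = 0.00096). Icam1, an adhesion molecule, was the other member besides Gbp10 to move downwards (log2 -0.61, SE 0.14, adjusted p = 0.0105). Myeloid cells express several of these genes, and monocyte and macrophage markers were highest in BAR-day14, as given above; their part was not tested beyond the neutrophil covariate.

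Of 21 genes of MHC class I presentation 1 was called (4.76%, against 10.3% of all genes). An unadjusted p was under 0.05 in 7, DESeq2 called 3 and limma voom 1. The called gene was Calr, the chaperone calreticulin (log2 0.42, SE 0.12, adjusted p = 0.0357). Its call was kept in 7 of 16 fits that left out a library.

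Among the receptors and kinases of the JAK-STAT pathway 1 of 40 moved upwards and 5 downwards (15% called, against 10.3% of all genes; median interaction -0.077). The downward count was 2 without BMF-day14 replicate 2. It was 3 without BMF-day10 replicate 1 or 3, BAR-day10 replicate 4, BMF-day14 replicate 1 or BAR-day14 replicate 3. Without the 3 BMF-day10 libraries richest in Rn45s it was 0. DESeq2 gave 8, and the fit without a scaling factor 9. Ifnar1, a chain of the type I interferon receptor, was at 99.2, 102, 103, 102 and 107 CPM in BMF-day10 and 105, 128, 109, 111 and 103 CPM in BAR-day10. At day 14 the arms separated, at 128, 127 and 129 CPM in BMF and 88.1, 103 and 102 CPM in BAR (interaction log2 -0.50, SE 0.11, adjusted p = 0.00725). Jak3, the kinase of the common gamma chain, did the same, with 136 to 169.5 and 146 to 183 CPM in BMF and BAR at day 10 and 237 to 258 and 167 to 201 CPM at day 14 (log2 -0.55, SE 0.12, adjusted p = 0.0103). Ptpn6, the phosphatase SHP-1, was the 1 member that moved upwards (log2 0.61, SE 0.18, adjusted p = 0.0366), and its call was kept in 5 of 16 such fits. Socs1, a feedback inhibitor of JAK kinases, was at 37.9 ± 5.76 and 37.1 ± 3.58 CPM at day 10 and 39.6 ± 5.06 and 52.8 ± 8.22 CPM at day 14, and its interaction was not called (log2 0.45, SE 0.18, adjusted p = 0.115). Without the 3 BMF-day10 libraries richest in Rn45s neither Ifnar1 (adjusted p = 0.0709) nor Jak3 (adjusted p = 0.104) passed.

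Of 35 targets of STAT5 and STAT4 the drug effect moved upwards in 3 and downwards in 1 (11.4% called, near the 10.3% of all genes). The upward count was 1 without BMF-day14 replicate 2 or BAR-day14 replicate 1. It was 5 and 6 without BMF-day10 replicates 4 and 5. Il12rb2, the signalling chain of the interleukin-12 receptor (chromosome 6, 67291318 to 67376188), was strongly lower with BAR at day 10, at 21.2, 20.4, 24.9, 17.4 and 27.4 CPM in BMF and 5.09, 3.74, 4.88, 3.50 and 4.26 CPM in BAR. At day 14 BMF had dropped to 13.97, 11.8 and 7.55 CPM while BAR was at 5.31, 3.46 and 4.06 CPM, so the gap narrowed without closing. The faded effect was called (log2 0.99, SE 0.28, adjusted p = 0.0312) but rested on several libraries, since it did not pass without BAR-day10 replicate 4, BMF-day14 replicate 2, BMF-day14 replicate 3 or BAR-day14 replicate 1 (adjusted p of 0.0551 to 0.0870) or by limma voom (adjusted p = 0.0543). Il18rap, an interleukin-18 receptor chain, faded as well (log2 0.60, SE 0.16, adjusted p = 0.0228). Il2ra, the high-affinity interleukin-2 receptor chain, was lower with BAR at day 10 (36.4 ± 8.85 against 16.3 ± 3.87 CPM) and overlapped at day 14 (13.4 ± 2.78 against 11.1 ± 4.03 CPM), without a called interaction (log2 0.89, SE 0.36, adjusted p = 0.126); DESeq2 called it (adjusted p = 0.0408).

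Pim2, a survival kinase induced by STAT5 (chromosome X, 7878262 to 7883432), was the downward member. It stood at 57.6, 55.2, 42.8, 58.4 and 48.3 CPM in BMF-day10 and 47.9, 57.6, 57.9, 52.1 and 53.97 CPM in BAR-day10. At day 14 it stood at 182, 131 and 125 CPM in BMF against 68.7, 82.9 and 77.6 CPM in BAR, so the BMF level more than doubled between the days and the BAR level rose less (log2 -0.97, SE 0.17, adjusted p = 0.00232). Bcl2, an anti-apoptotic protein, was at 84.2 ± 10.2 and 52.9 ± 7.96 CPM in BMF and BAR at day 10 and 169 ± 50.1 and 69.3 ± 2.59 CPM at day 14. Its mean also rose more in BMF, but unlike Pim2 it was already called lower with BAR at day 10 (log2 -0.67, adjusted p = 0.00506). The interaction of Bcl2 was not called (log2 -0.61, SE 0.22, adjusted p = 0.0838; adjusted p = 0.0339 without BMF-day14 replicate 3). Cish, a STAT5-induced inhibitor, was lower with BAR at both days (day 10 log2 -0.66, day 14 log2 -1.10) and its interaction was not called (log2 -0.44, SE 0.31, adjusted p = 0.408). Tnfrsf4, the costimulatory receptor OX40, moved upwards, from 79.2 ± 13.9 against 61.3 ± 9.93 CPM to 54.6 ± 9.79 against 93.6 ± 10.6 CPM (log2 1.15, SE 0.23, adjusted p = 0.00575).

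Killing molecules were called in both directions. Of 32 tested the effect moved upwards in 3 and downwards in 5 (25% called, against 10.3% of all genes). Gzma, granzyme A (chromosome 13, 113093825 to 113100981), had the largest downward change of those that grew in all 16 fits that left out a library and reached 10 CPM in a group. It was at 342, 318, 221, 202 and 243 CPM in BMF-day10 and 318, 211, 310.0, 335 and 304 CPM in BAR-day10, which overlapped, and at 276, 170.0 and 218 CPM in BMF-day14. In BAR-day14 it was at 25.5, 44.4 and 39.01 CPM, below every other library (log2 -2.76, SE 0.32, adjusted p = 0.000526). Granzyme K (log2 -0.81, SE 0.24, adjusted p = 0.0384), the chemokine gene Ccl5 (log2 -0.89, SE 0.25, adjusted p = 0.0295), cathepsin W (log2 -0.95, SE 0.25, adjusted p = 0.0276) and Fasl, the death ligand of activated T cells, moved the same way. Fasl was at 109.7, 113, 115, 114 and 119 CPM in BMF-day10, 139, 121, 115, 136 and 130.2 CPM in BAR-day10, 213, 178 and 187 CPM in BMF-day14 and 111, 153 and 139.6 CPM in BAR-day14 (log2 -0.69, SE 0.13, adjusted p = 0.00414). The 3 BMF-day14 libraries were above all others.

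Granzyme B and perforin showed no called change of the drug effect. Gzmb was lower with BAR at day 10 (1153 ± 76.2 against 832 ± 153 CPM) and at day 14 (622 ± 65.5 against 411 ± 71.7 CPM), with an interaction of log2 -0.13, SE 0.20, adjusted p = 0.742. Prf1 was at 371 ± 45 and 391 ± 85.4 CPM at day 10 and 521 ± 107 and 704 ± 20.1 CPM at day 14 (log2 0.36, SE 0.22, adjusted p = 0.326). The chemokine gene Ccl3 moved upwards (log2 1.07, SE 0.23, adjusted p = 0.00746). Serpinb9b, a protease inhibitor whose reads may be shared with Serpinb9, was lower with BAR at both days but less so at day 14. It stood at 11.3, 11.6, 13.5, 8.31 and 11.1 CPM in BMF-day10, 1.496, 1.34, 0.627, 1.34 and 1.53 CPM in BAR-day10, 5.53, 4.07 and 5.27 CPM in BMF-day14 and 3.06, 1.15 and 1.53 CPM in BAR-day14, with no overlap at either day (log2 1.75, SE 0.40, adjusted p = 0.0123). Without BMF-day14 replicate 1, BMF-day14 replicate 2 or BAR-day14 replicate 2 the downward count of the killing list was 2, and without the 3 BMF-day10 libraries richest in Rn45s it was 1.

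Regulators of effector differentiation were often lower with BAR at both days, with 17 of 33 called lower and 0 higher at day 10 and 20 lower and 2 higher at day 14 (7.94% of all genes were called lower at day 10 and 12.2% at day 14). Their median effect was -0.38 at day 10 and -0.45 at day 14, and 3 interactions were called upwards and 4 downwards (21.2%, against 10.3% of all genes). The downward count was 2 without BMF-day14 replicate 2, 7 without BMF-day14 replicate 3 and 1 without the 3 BMF-day10 libraries richest in Rn45s. Epas1, the gene for the hypoxia-inducible transcription factor subunit HIF-2 alpha (chromosome 17, 86753700 to 86833410), faded. It was at 25.6, 26.5, 39.8, 22.9 and 26.8 CPM in BMF-day10 and 6.72, 5.72, 4.01, 5.12 and 8.08 CPM in BAR-day10, far apart, and overlapped at day 14 at 16.1, 14.4 and 14.2 CPM in BMF and 15.7, 8.26 and 11.01 CPM in BAR (interaction log2 1.90, SE 0.32, adjusted p = 0.0026). Bhlhe40, a factor of effector and resident cells, faded too (log2 0.73, SE 0.20, adjusted p = 0.0295). Eomes (log2 -0.55, SE 0.15, adjusted p = 0.0273) and Runx3 (log2 -0.65, SE 0.13, adjusted p = 0.00574), factors that direct the killer programme, and Klrk1, the activating receptor NKG2D (log2 -0.55, SE 0.13, adjusted p = 0.015), had effects that grew downwards.

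Cd44, the adhesion receptor of activated and memory T cells, reversed. It was at 134, 131, 127, 124 and 98.9 CPM in BMF-day10 and 81.6, 95.6, 104, 77 and 93.5 CPM in BAR-day10, where 1 BMF library overlapped BAR. At day 14 it was at 109, 115 and 117 CPM in BMF and 172, 171 and 143 CPM in BAR (interaction log2 0.95, SE 0.15, adjusted p = 0.00117). Among 29 naive and memory genes 1 was called (3.45%, below the 10.3% of all genes), Satb1, a chromatin organiser of T cells (chromosome 17, 51736187 to 51833290). It was at 103, 91.2, 105, 81.4 and 73.5 CPM in BMF-day10 against 23.8, 31.8, 33.2, 23.9 and 25.1 CPM in BAR-day10, and at 57.5, 59.8 and 41.9 CPM in BMF-day14 against 41.5, 37.9 and 35.1 CPM in BAR-day14. The fall with the drug was called at both days and was smaller at day 14 (log2 1.25, SE 0.21, adjusted p = 0.0016). Tcf7, which maintains memory-like cells, overlapped between the arms at both days (log2 0.32, SE 0.27, adjusted p = 0.502).

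Inhibitory receptors and exhaustion genes were called upwards in 2 of 31 and downwards in 10 (38.7% called, against 10.3% of all genes), with 4 reversals (0.565% of all genes were). The downward count was 5 without the 3 BMF-day10 libraries richest in Rn45s and 2 against a fold of 1.5. Cd200r1, an inhibitory receptor for CD200 (chromosome 16, 44765736 to 44794978), was at 31.96, 27.8, 46.3, 38.7 and 33.02 CPM in BMF-day10 and 68.3, 48.7, 65.6, 68.6 and 57.6 CPM in BAR-day10. At day 14 the order was exchanged, with 62.3, 59.5 and 62.6 CPM in BMF and 37.6, 34.98 and 38.3 CPM in BAR (interaction log2 -1.53, SE 0.19, adjusted p = 0.000481). Its relative Cd200r4 reversed as well (log2 -0.81, SE 0.17, adjusted p = 0.00684), and reads may be shared between them. Cd244, the receptor 2B4, was at 20.7, 17.9, 25.3, 28.2 and 20.1 CPM in BMF-day10 and 37.1, 24.2, 33.03, 40.8 and 33.03 CPM in BAR-day10, then at 60.8, 42.4 and 52.5 CPM in BMF-day14 and 20.5, 24.1 and 24 CPM in BAR-day14. BMF rose to the highest levels between the days and BAR did not (log2 -1.76, SE 0.23, adjusted p = 0.000587).

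Tox2, a factor linked to exhaustion, was at 13.2, 20.5, 8.07, 12.2 and 16.6 CPM in BMF-day10 and 24.01, 26.1, 22.01, 28.9 and 26.5 CPM in BAR-day10. It was higher in both arms at day 14, at 49.1, 43.97 and 52.99 CPM in BMF and 31.6, 28.97 and 39.9 CPM in BAR, where the day 14 test was not passed (adjusted p = 0.0988; interaction log2 -1.40, SE 0.29, adjusted p = 0.0094). Cd160 (log2 -0.85, SE 0.23, adjusted p = 0.0302), an HVEM receptor, Ptger4, a prostaglandin E2 receptor (log2 -0.99, SE 0.18, adjusted p = 0.00318), and Cd38, an NAD-consuming enzyme (log2 -0.50, SE 0.12, adjusted p = 0.0158), had effects that grew downwards. Nr4a3, an orphan nuclear receptor induced by T cell receptor signals, reversed upwards, from 16.4, 15.5, 18.3, 13.9 and 9.86 CPM in BMF and 6.40, 9.41, 7.30, 8.13 and 8.20 CPM in BAR at day 10 to 4.68, 7.15 and 4.83 CPM in BMF and 11.8, 8.35 and 9.64 CPM in BAR at day 14 (log2 1.74, SE 0.27, adjusted p = 0.00106). Pdcd1, which encodes PD-1, overlapped between the arms at both days, at 634 ± 62.2 and 752 ± 114 CPM at day 10 and 749.8 ± 8.30 and 694 ± 97.2 CPM at day 14 (log2 -0.36, SE 0.17, adjusted p = 0.178).

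T cell receptor signalling and CD8 identity genes had effects that grew downwards in 8 of 28 and upwards in 0 (28.6% called, against 10.3% of all genes). An unadjusted p was under 0.05 in 15, DESeq2 called 8 and limma voom 7. At day 10, 4 fell (7.94% of all genes were called lower), and at day 14, 22 fell (12.2% of all genes), with none called higher at either day. Ubash3a, a negative regulator of receptor signals, was at 95.2, 96.1, 101, 103 and 114 CPM in BMF-day10, 124, 104, 110.0, 128 and 112 CPM in BAR-day10, 172, 165 and 157 CPM in BMF-day14 and 111, 127 and 122 CPM in BAR-day14. Its arms overlapped at day 10 and BAR was below BMF at day 14 (log2 -0.64, SE 0.12, adjusted p = 0.00292). Plcg1, the phospholipase below the receptor (log2 -0.68, SE 0.13, adjusted p = 0.00399), and the co-receptors Cd5 (log2 -0.51, SE 0.13, adjusted p = 0.021) and Cd2 (log2 -0.60, SE 0.16, adjusted p = 0.024) moved with it. Cd8a did not pass, at 719.8 ± 73.4 and 665 ± 86.4 CPM at day 10 and 832 ± 131 and 657 ± 59.3 CPM at day 14 (log2 -0.23, SE 0.17, adjusted p = 0.425). Neutrophil markers were highest in BAR-day14, at 40645 to 53362 CPM, and with them as a covariate 4 of the list were called. The count was also 4 without BMF-day14 replicate 1, BMF-day14 replicate 2 or BAR-day14 replicate 2, 13 without a scaling factor and 2 without the 3 BMF-day10 libraries richest in Rn45s.

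**Figure D4:**
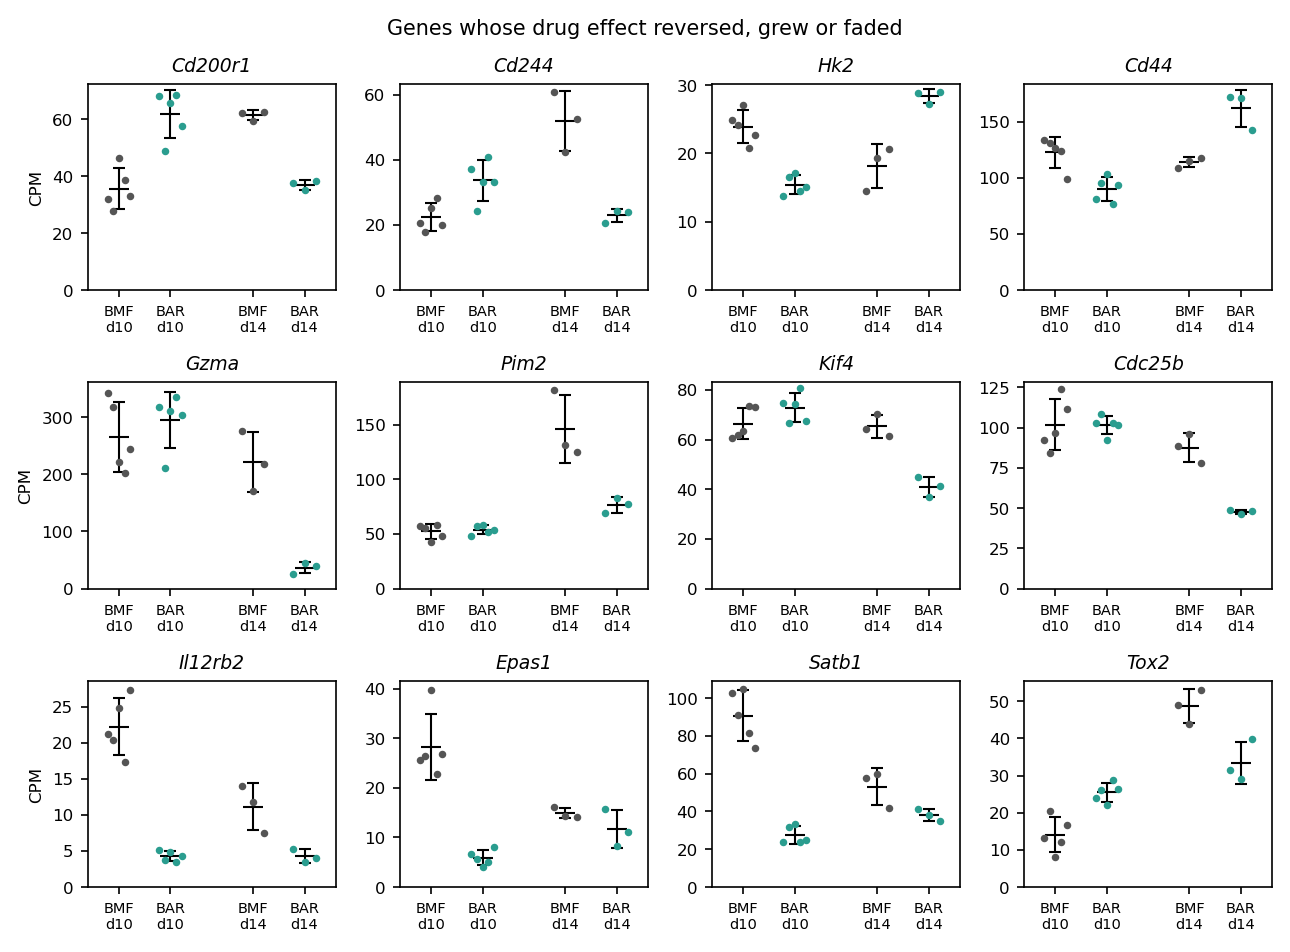
Points are CPM in single libraries, with group means and SD bars, for 12 genes of T cell function, metabolism and mitosis, BMF in grey and BAR in green. In Cd200r1, Cd244, Hk2 and Cd44 the arms change order between the days, in Gzma, Pim2, Kif4 and Cdc25b they separate at day 14, and in Il12rb2, Epas1 and Satb1 the day 10 gap narrows by day 14, while the Tox2 gap turns its sign without a call at day 14.

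Receptors for homing and chemokines gave 2 of 28 calls upwards and 5 downwards (25%, against 10.3% of all genes). Cxcr4, the receptor that holds cells in the marrow, was at 36.4 ± 7.18 and 29.5 ± 2.43 CPM in BMF and BAR at day 10 and 20.8 ± 5.13 and 38.6 ± 10.7 CPM at day 14 (log2 1.19, SE 0.26, adjusted p = 0.0107). Cd9, a tetraspanin, moved upwards (log2 1.39, SE 0.24, adjusted p = 0.00318), while Cxcr3, the receptor for CXCL9 and CXCL10 (log2 -0.83, SE 0.24, adjusted p = 0.0407), and Selplg, the selectin ligand PSGL-1 (log2 -0.58, SE 0.14, adjusted p = 0.0144), moved downwards. With the neutrophil covariate 2 were called upwards and 1 downwards. The downward count was 1 without BMF-day14 replicate 1 or BAR-day14 replicate 2. It was 2 without BMF-day10 replicate 2 or 3 or BAR-day14 replicate 1 or 3. It was 3 without BMF-day10 replicate 1, BAR-day10 replicate 1 or 5 or BMF-day14 replicate 2. Without the 3 BMF-day10 libraries richest in Rn45s it was 0.

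Of 60 G2/M and mitosis genes the drug effect moved downwards in 25 and upwards in 0, and 35 did not pass (41.7% called, against 10.3% of all genes). An unadjusted p was under 0.05 in 35, DESeq2 called 26 and limma voom 24. Their median effect was 0.099 at day 10, with 9 called higher and 1 lower, and -0.33 at day 14, with 0 higher and 31 lower. Of all genes 6.49% were called higher and 7.94% lower at day 10, and 12.9% higher and 12.2% lower at day 14. Kif4, a chromosome-bound kinesin (chromosome X, 100625737 to 100727214), was at 60.6, 61.6, 63.3, 73.6 and 72.95 CPM in BMF-day10 and 74.8, 66.7, 74.3, 80.8 and 67.4 CPM in BAR-day10. At day 14 BAR was lowest, at 44.99, 36.7 and 41.1 CPM against 64.1, 70.3 and 61.3 CPM in BMF (log2 -0.80, SE 0.13, adjusted p = 0.00138). Cdc25b, a phosphatase that starts mitosis (chromosome 2, 131186949 to 131198497), was at 92.4, 84.2, 96.5, 124 and 111 and 103, 108, 92.5, 103 and 102 CPM at day 10 in BMF and BAR, and at 88.3, 95.9 and 78.1 and 48.9, 46.2 and 47.9 CPM at day 14 (log2 -0.87, SE 0.15, adjusted p = 0.0017). Prc1, which bundles spindle microtubules (log2 -0.65, SE 0.14, adjusted p = 0.00661), the kinesin Kif18b (log2 -0.77, SE 0.14, adjusted p = 0.00306) and the condensin subunit Ncaph (log2 -0.61, SE 0.14, adjusted p = 0.0117) reversed. Mki67, a marker of dividing cells, did not pass (log2 -0.21, SE 0.21, adjusted p = 0.558), being lower with BAR at day 14 only by its own test (day 10 log2 -0.29, adjusted p = 0.139; day 14 log2 -0.50, adjusted p = 0.0334). The downward count was 17 with the neutrophil covariate, 21 with the Rn45s covariate, 14 with the B cell covariate, 11 without BMF-day14 replicate 2, 15 without BAR-day14 replicate 3 and 3 without the 3 BMF-day10 libraries richest in Rn45s.

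DNA replication and G1/S genes were called upwards in 0 of 55 and downwards in 4 (7.27% called, against 10.3% of all genes). Pole, the catalytic subunit of DNA polymerase epsilon, was at 40.2 to 51.2 and 45.5 to 54.6 CPM at day 10 in BMF and BAR and at 57.6 to 66.1 and 33.9 to 42.6 CPM at day 14 (log2 -0.73, SE 0.14, adjusted p = 0.0036). Tk1, thymidine kinase, was called higher with BAR at day 10 (log2 0.30) and stood lower at day 14 without passing (log2 -0.31, adjusted p = 0.0548; interaction log2 -0.61, SE 0.15, adjusted p = 0.0145; adjusted p = 0.0527 without BMF-day14 replicate 2).

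Of 29 glycolysis genes the drug effect moved upwards in 13 and downwards in 0 (44.8% called, against 10.3% of all genes), and 16 did not pass. The median effect went from a median of -0.12 at day 10 to 0.42 at day 14. Hk2, the hexokinase that commits glucose to the pathway (chromosome 6, 82725025 to 82774454), reversed. It was at 24.9, 24.1, 27.2, 20.8 and 22.6 CPM in BMF-day10 and 13.7, 16.5, 17.2, 14.5 and 15.1 CPM in BAR-day10, and at 14.5, 19.3 and 20.7 CPM in BMF-day14 and 28.9, 27.2 and 29.03 CPM in BAR-day14. All BAR libraries were below BMF at day 10 and above it at day 14 (log2 1.28, SE 0.16, adjusted p = 0.000481). Slc16a1, the lactate transporter MCT1, reversed as well, from 57.4 ± 9.80 against 44.8 ± 3.83 CPM to 35.5 ± 1.24 against 59.5 ± 5.40 CPM (log2 1.10, SE 0.16, adjusted p = 0.000759). Pfkm (log2 1.01, SE 0.19, adjusted p = 0.00326), a phosphofructokinase, and Tkt, transketolase (log2 0.60, SE 0.12, adjusted p = 0.00466), grew upwards, and Slc2a1, the glucose transporter GLUT1, faded from a fall (log2 0.52, SE 0.13, adjusted p = 0.0168). Ndrg1, a gene induced by hypoxia and metal stress, showed the same reversal outside the list, at 10.97, 15.9, 11.5, 11.4 and 8.79 CPM in BMF-day10, 3.53, 4.44, 4.50, 3.28 and 4.81 CPM in BAR-day10, 4.92, 4.39 and 5.91 CPM in BMF-day14 and 9.95, 9.31 and 8.34 CPM in BAR-day14 (log2 2.36, SE 0.25, adjusted p = 0.000259). With the neutrophil covariate 7 of the 29 were called upwards, with the Rn45s covariate 18, with the B cell covariate 7, without a scaling factor 8 and without the Rn45s-rich libraries 6; without BMF-day14 replicate 1, BMF-day14 replicate 2 or BAR-day14 replicate 2 the counts were 7, 4 and 6.

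Among biosynthetic pathways, sterol and lipid synthesis had 5 of 30 upwards and 1 downwards (20%, against 10.3% of all genes). The upward count was 2 without BMF-day14 replicate 1 or BMF-day14 replicate 2, and 3 without BAR-day14 replicate 2 or without the Rn45s-rich libraries. Fdps, farnesyl diphosphate synthase, was at 44.4 ± 9.47 and 60.1 ± 2.46 CPM at day 10 and 44.4 ± 7.05 and 123 ± 20.6 CPM at day 14 (log2 1.04, SE 0.21, adjusted p = 0.00541), and Scd2, a fatty acid desaturase, grew upwards too (log2 1.01, SE 0.19, adjusted p = 0.00389). Fasn, fatty acid synthase, was the member that moved downwards (log2 -0.86, SE 0.19, adjusted p = 0.0111). Ribosome biogenesis had 6 of 46 upwards and 0 downwards (13%, near the 10.3% of all genes), with Wdr12 (log2 0.62, SE 0.13, adjusted p = 0.00541) and Gnl3 (log2 0.66, SE 0.17, adjusted p = 0.0199; not passed without BMF-day14 replicate 2 or BAR-day14 replicate 1, adjusted p = 0.0563 and 0.0531). That count was 1 without BMF-day14 replicate 2 and 2 without BAR-day14 replicate 2. It was 3 without BMF-day14 replicate 1 or BAR-day14 replicate 1 or 3, and 1 without the Rn45s-rich libraries. Cytosolic ribosomal proteins had 0 of 70 called (10 at an unadjusted p under 0.05, 2 by DESeq2, 0 by limma voom), and nuclear oxidative phosphorylation genes 0 of 62 (8, 2 and 0 likewise).

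Of 26 genes of the amino acid stress response 3 moved upwards (11.5%, near the 10.3% of all genes). Asns, asparagine synthetase, grew from 31.8 ± 7.31 and 39.03 ± 3.36 CPM at day 10 to 29.1 ± 4.29 and 74.6 ± 10.8 CPM at day 14 (log2 1.06, SE 0.21, adjusted p = 0.00501), and Atf4, the factor behind the response, faded from a fall (log2 1.51, SE 0.34, adjusted p = 0.0154). Vldlr, a lipoprotein receptor, was called but had 0.0474 to 0.802 CPM in BMF-day10, no count in BMF-day14 and 0.111 to 0.296 CPM in BAR-day14, so its fitted size depends on the prior count. The unfolded protein response had 1 of 20 (5.0%, below that share), which was again Calr, and 5 of 20 heat shock genes moved upwards (25%, above it). Hsp90aa1, an inducible chaperone, was at 963, 944, 1129, 902 and 400.1 CPM in BMF-day10 and 378 to 454 CPM in BAR-day10 (log2 1.39, SE 0.33, adjusted p = 0.017). BMF-day10 replicate 5, the library of its group poorest in Rn45s, lay with BAR, and the cause was not tested. Hspa1a, whose near copy Hspa1b can take its reads, ran from 4.65 to 80.1 CPM in BMF-day10, 5.24 to 32.3 CPM in BAR-day10, 0.159 to 1.12 CPM in BMF-day14 and 12.9 to 22.7 CPM in BAR-day14 (log2 6.51, SE 1.44, adjusted p = 0.0157; adjusted p = 0.0563 without BMF-day14 replicate 1 and 0.170 by limma voom). The heat shock count was 1 without BMF-day14 replicate 1. It was 3 without BMF-day10 replicate 1, 2 or 4, BAR-day10 replicate 5, BMF-day14 replicate 2 or any BAR-day14 library. It was 0 without BAR-day10 replicate 3 and BMF-day14 replicate 1 together, and 0 without the Rn45s-rich libraries.

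Immediate early genes had the highest median interaction of the functional lists (1.01) with 4 of 32 called upwards and 1 downwards (15.6%, against 10.3% of all genes). The upward count was 1 without BMF-day10 replicate 2, BAR-day10 replicate 4 or 5, BMF-day14 replicate 1 or BAR-day14 replicate 1. It was 2 without BAR-day10 replicate 1, BMF-day14 replicate 2 or BAR-day14 replicate 2 or 3. It was 9 without BAR-day10 replicate 2 and 8 without BMF-day10 replicate 5. It was 10 by DESeq2, 1 by limma voom and 0 without the Rn45s-rich libraries. Fosl2, an AP-1 factor, grew upwards (log2 1.11, SE 0.25, adjusted p = 0.00988) and Dusp5, a phosphatase of ERK, downwards (log2 -0.54, SE 0.15, adjusted p = 0.0319; kept in 9 of 16 fits that left out a library). Of 26 NF-kappaB genes 2 moved upwards (7.69%, against 10.3% of all genes), Tnfrsf4 and Nfkb1, the p105 subunit (log2 0.51, SE 0.14, adjusted p = 0.0259; not passed without BMF-day14 replicate 1, BMF-day14 replicate 2 or BAR-day14 replicate 2). Among 36 apoptosis and p53 genes 1 moved upwards and 2 downwards (8.33%, likewise), with Gtse1, a p53-binding mitotic protein (log2 -0.66, SE 0.14, adjusted p = 0.00586), and Bid, a pro-death BCL-2 relative (log2 0.44, SE 0.12, adjusted p = 0.0248; kept in 12 of 16 such fits).

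**Figure D5:**
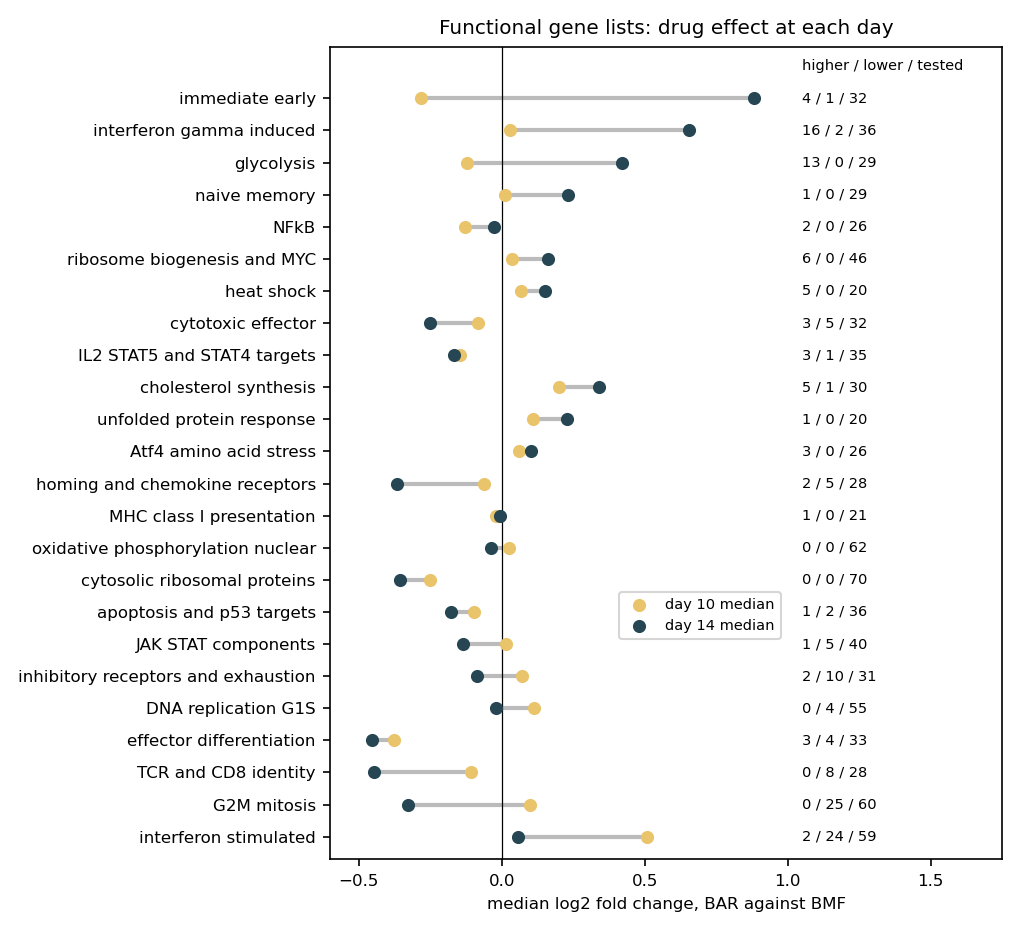
For each of 24 functional lists the yellow and dark points are the median log2 fold change of BAR against BMF at day 10 and day 14, ordered from the highest median interaction at the top to the lowest at the bottom, and the numbers give members with interactions called higher, lower and members tested. Interferon-stimulated and mitosis genes end lower than they began, and interferon-gamma-induced, glycolysis and immediate early genes end higher.

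Genes of red cells had large upward interactions. All 10 erythroid markers tested grew upwards (10.3% of all genes were called), and the haemoglobin genes Hba-a1, Hba-a2, Hbb-bs and Hbb-bt had no count in any library. Limma voom called 5 of the 10. The erythroid sum was 113 to 259.8 CPM in BMF-day10, 219 to 494 in BAR-day10, 24.4 to 56.7 in BMF-day14 and 757 to 1487 in BAR-day14, so BMF fell between the days while BAR rose. Rhag, part of the Rhesus complex of red cells, was at 6.67, 4.22, 2.46, 2.70 and 12.1 CPM in BMF-day10, 8.40, 23.04, 13.9, 7.20 and 19.2 CPM in BAR-day10, 0, 0.695 and 0.647 CPM in BMF-day14 and 90.5, 38.2 and 37.6 CPM in BAR-day14 (log2 5.59, SE 1.05, adjusted p = 0.00711). Aqp1, a water channel (log2 5.70, SE 0.88, adjusted p = 0.00236), and Sphk1, a sphingosine kinase (log2 6.02, SE 1.10, adjusted p = 0.00515), were also near 0 in BMF-day14, and their fitted sizes depend on the prior count. By limma voom Aqp1 (adjusted p = 0.0514) and Rhag (adjusted p = 0.0787) did not pass. Slc25a37, the mitochondrial iron importer mitoferrin, reversed, from 20.6, 19.5, 29.8, 17.3 and 10.4 CPM in BMF and 9.88, 13.1, 15.04, 9.88 and 11.1 CPM in BAR at day 10, which overlapped, to 4.08, 4.84 and 4.25 and 28.2, 15.7 and 17.5 CPM at day 14 (log2 2.95, SE 0.39, adjusted p = 0.000751; day 10 adjusted p = 0.0496). Its fall with BAR at day 10 departed from the erythroid sum, whose mean was 161 CPM in BMF-day10 and 343 CPM in BAR-day10. Mast cell, basophil and eosinophil markers grew upwards in 6 of 12.

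Some macrophage genes split from the rest of their list. Of 22 monocyte and macrophage markers 1 moved upwards and 6 downwards (31.8% called, against 10.3% of all genes). Of the 6, 5 were reversals (0.565% of all genes were), although the summed list was highest in BAR-day14. Other macrophage markers were not called, such as Adgre1 (log2 -0.28, adjusted p = 0.687) and Cd68 (log2 0.22, adjusted p = 0.690). Fcgr1 leaned upwards without passing (log2 1.17, adjusted p = 0.0502). C1qa and C1qc, chains of complement C1q, were at 5.39, 4.30, 4.60, 6.44 and 5.07 and 9.75, 6.58, 9.82, 11.01 and 11.3 CPM in BMF-day10 and at 7.98, 12.1, 6.66, 5.83 and 6.50 and 18.8, 28.6, 16.6, 15.1 and 16.3 CPM in BAR-day10. At day 14 they were at 14.6, 9.40 and 10.03 and 28.6, 18.6 and 19.6 CPM in BMF and 4.89, 4.72 and 4.69 and 11.2, 12.9 and 12.6 CPM in BAR (interaction log2 -1.84, SE 0.30, adjusted p = 0.00139 for C1qa; log2 -1.83, SE 0.30, adjusted p = 0.0016 for C1qc). BAR was higher at day 10, with overlap for C1qa only, and lower at day 14 without overlap. Cd5l, a secreted scavenger protein (log2 -2.11, SE 0.33, adjusted p = 0.00109), and Spic, the factor of iron-recycling macrophages in mice (log2 -1.64, SE 0.27, adjusted p = 0.00141), reversed with them. Apoe, a lipid carrier that macrophages make, was called higher at day 10 and not at day 14, at 5.96 ± 1.89 and 13.3 ± 4.73 CPM in BMF and BAR at day 10 and 23.3 ± 5.24 and 13.4 ± 1.61 CPM at day 14 (log2 -1.95, SE 0.40, adjusted p = 0.0083).

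Further genes named for large changes belonged to none of the lists. Cd7, a surface protein of T and natural killer cells, was at 898, 952 and 783 CPM in BMF-day14 and 298, 302 and 443 CPM in BAR-day14, against 301 to 571 and 287 to 564 CPM at day 10 (log2 -1.57, SE 0.33, adjusted p = 0.0104). Without the 3 BMF-day10 libraries richest in Rn45s it did not pass (adjusted p = 0.0711). Fabp4, a fatty acid carrier, was at 2.12 to 3.53 and 2.85 to 3.68 CPM at day 10 and rose only in BMF, to 13.3, 8.41 and 10.1 CPM against 2.84, 1.17 and 2.39 CPM in BAR at day 14 (log2 -2.46, SE 0.34, adjusted p = 0.000626). Heg1, a membrane protein of cell junctions, grew downwards too (log2 -1.47, SE 0.24, adjusted p = 0.0016). Effects that faded included Ermn, a cytoskeletal protein, at 16.4 ± 2.43 against 2.75 ± 0.975 CPM at day 10 and 11.4 ± 3.09 against 9.09 ± 1.997 CPM at day 14 (log2 2.25, SE 0.41, adjusted p = 0.00388). Il1rl1, the interleukin-33 receptor ST2, went from 15.3 ± 1.83 against 6.45 ± 0.936 CPM to 4.27 ± 1.25 against 5.43 ± 2.77 CPM (log2 1.59, SE 0.34, adjusted p = 0.0088). Ccdc80, a matrix protein, was at 1.76, 1.46, 1.04, 0.687 and 1.24 CPM in BMF-day10 and 10.2, 6.59, 19.6, 19.2 and 8.01 CPM in BAR-day10, and overlapped at day 14 at 8.42, 3.65 and 4.97 and 3.39, 5.68 and 5.56 CPM (log2 -3.59, SE 0.58, adjusted p = 0.00231). Chn2, a Rac GTPase-activating protein, faded likewise (log2 -1.26, SE 0.23, adjusted p = 0.00335).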

How the data were processed

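The authors deposited 1 table of raw counts per gene for the 16 libraries, unnormalized whole numbers. Per the labels' protocols, marrow CD8+ T cells were flow-sorted and libraries made with the SMART-Seq mRNA LP kit (Takara). The submitters' processing notes name HISAT2 2.0.5 and mm10, and the sources used here do not state which program counted the reads, on which annotation, or whether it used strand. Of 24421 entries, 27 whose names were calendar dates (0.234% to 0.293% of counts) were left out. Groups came from the treatment label, and all libraries entered 1 fit with a mean per group in edgeR 4.0.16 (R 4.3.3; TMM, filterByExpr, robust quasi-likelihood F-test, 14862 genes tested, Benjamini-Hochberg threshold 0.05). Levels are TMM-normalised CPM, and SE is the size of the log2 effect over the root of F. Library totals of 26066991 to 58659873 counts and a common biological coefficient of variation of 0.198 set the precision. Libraries within groups differed beyond sampling noise (chi-square per degree of freedom 11.2 to 347 over 26 pairs), and none was counted as a repeat deposit of another; this does not show that they are independent.

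Named genes were up to 4 per class and sign with the largest interaction, at least 10 CPM in a group and a call in all 16 leave-one-out fits (gene models and sex-linked genes skipped), the 2 called members with the smallest p of each functional list, and a fixed set of anchor genes. Further list members were named after their values were seen, and some genes that the rule chose are not reported here. The groups compared and the gene lists were chosen with earlier results of these data known. Positions are from GENCODE's annotation of GRCm38 (mm10), matched by symbol. Alternatives were other scalings and filters, DESeq2 1.42.0, limma voom 3.58.1, a test against a fold of 1.5, covariates, and left-out libraries. The fit was tested on simulated data. It called 50% of genes with an interaction of log2 1 in size and 75% of those with log2 2 (100 genes of each size). A gene that was not called may therefore still have changed. Of its calls on the simulated data 2.34% were false. The simulated counts were drawn independently for each gene and library, without shifts shared across a library. That share is therefore not a rate of false calls in these data.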

Additional observations from a re-analysis of the deposited data

Results flagged for a closer look

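For 61 genes chosen by the naming rule the drug effect at day 14 differed from that at day 10 by the interaction test itself. Values in brackets are the interaction on the log2 scale. Upwards moved Vldlr (7.54), Hspa1a (6.51), Sphk1 (6.02), Aqp1 (5.70), Rhag (5.59), Slc25a37 (2.95), Ndrg1 (2.36), Ermn (2.25), Epas1 (1.90), Gbp2 (1.75), Serpinb9b (1.75), Nr4a3 (1.74), Mnda (1.66), Il1rl1 (1.59), Cd9 (1.39), Hsp90aa1 (1.39) and Hk2 (1.28). Smaller upward changes were those of Satb1 (1.25), Cxcr4 (1.19), Tnfrsf4 (1.15), Fosl2 (1.11), Slc16a1 (1.10), Asns (1.06), Fdps (1.04), Scd2 (1.01), Il12rb2 (0.99), Cd44 (0.95), Casp4 (0.85), Gnl3 (0.66), Wdr12 (0.62), Nfkb1 (0.51), Bid (0.44) and Calr (0.42). Downwards moved Ccdc80 (-3.59), Gzma (-2.76), Fabp4 (-2.46), Ifi27l2a (-2.08), Apoe (-1.95), C1qa (-1.84), Pydc4 (-1.83), C1qc (-1.83), Cd244 (-1.76), Cd7 (-1.57), Cd200r1 (-1.53), Heg1 (-1.47), Tox2 (-1.40), Chn2 (-1.26), Dhx58 (-1.11) and Pim2 (-0.97). Smaller downward changes were those of Irf7 (-0.96), Cdc25b (-0.87), Kif4 (-0.80), Pole (-0.73), Fasl (-0.69), Gtse1 (-0.66), Ubash3a (-0.64), Usp18 (-0.62), Tk1 (-0.61), Jak3 (-0.55), Dusp5 (-0.54) and Ifnar1 (-0.50). Vldlr, Sphk1, Aqp1 and Rhag were at or near 0 CPM in BMF-day14, so their sizes depend on the prior count and are no bound. Hspa1a was also low there, at 0.159 to 1.12 CPM, so its size is poorly fixed, and limma voom did not call it (adjusted p = 0.170).

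A single library lay far from the other 4 of its group in 13 of 178 groups of 5 examined, where chance flags about 1 in 20. In BMF-day10, replicate 3 was high for Epas1 (39.8 CPM) and Gnl3 (93.4 CPM), and replicate 5 was low for Cd44 (98.9 CPM) and high for Asns (44.6 CPM). In BAR-day10, replicate 2 was high for C1qc (28.6 CPM) and Hspa1a (32.3 CPM) and low for Gzma (211 CPM). Replicate 3 of BAR-day10 was low for Cd7 (287 CPM), Ermn (1.02 CPM) and Serpinb9b (0.627 CPM), and high for the summed markers of dendritic cells (4398 CPM), B and plasma cells (585 CPM) and gamma-delta T cells (8.60 CPM). That library's share in each result was measured by leaving it out, and every named call but that of Usp18 was kept without it.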

How the results depend on the processing

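No paired analysis was possible because the labels carry no replicate numbers within groups; those used here follow accession order and pair nothing. Leaving out 1 library at a time, the interaction was called in 679 to 2025 genes, with 46 to 172 reversals, 488 to 1298 effects that grew and 81 to 589 that faded. Reversals were fewest without BMF-day14 replicate 1 and faded effects fewest without BMF-day14 replicate 2, and both were most without BMF-day10 replicate 5. With library totals alone, 140 genes reversed and 364 faded, and DESeq2 gave 362 faded. Tested against a fold of 1.5, 160 genes were called, with 0 reversed (36 of the 84 kept an interaction call), 121 grown and 8 faded; this test has a higher bar by construction. With Rn45s as a covariate 5 reversed and 27 faded, with neutrophil markers 22 reversed and 525 grew, and with B cell markers 1 reversed and 9 faded; the cause was not tested. Without the 3 BMF-day10 libraries richest in Rn45s, 413 were called, with 9 reversed, 371 grown and 19 faded. Among the genes chosen by the naming rule, calls that ended there were those of Cd7, Serpinb9b, Il1rl1, Apoe, Calr, Tnfrsf4, Ifnar1, Jak3 and Fasl. Those of Ubash3a, Cxcr4, Tk1, Gnl3, Vldlr, Gtse1, Bid, Fosl2, Dusp5, Hspa1a, Hsp90aa1, Nfkb1, Il12rb2, Irf7 and Usp18 ended there too. Without BAR-day10 replicate 3 and BMF-day14 replicate 1, chosen after seeing the data, 902 were called, with 39 reversed, 692 grown and 106 faded. The 84 genes reported as reversals kept an interaction call far more often than the class count shows, in 84, 83 and 83 under the Rn45s, neutrophil and B cell covariates. They had been picked in these same libraries for opposite effects at both days, so keeping that call is no independent check. The other alternatives called 1231 to 2127 genes, the fewest with no filter on low counts and the most with DESeq2, and no gene called as reported was called with the opposite sign under any of them. Among the 75 genes that the naming rule chose only Gzmb, which was not called, turned its direction, to 0.019 with the neutrophil covariate and 0.0020 without BAR-day14 replicate 1; calls ended in 37 against a fold of 1.5, 24 without the Rn45s-rich libraries, 9 with the B cell covariate, 7 without the 2 libraries together and at most 4 under each other alternative that used all libraries. Total counts did not separate the groups, but the number of genes with a count separated the days. It was 18309 to 21331 in the day 10 libraries and 15225 to 16101 in the day 14 libraries. The cause of this difference was not tested. In addition, 3 libraries per arm at day 14 limit every interaction, and genes near 0 in BMF-day14 have poorly fixed sizes.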

Other observations

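The drug effect on some markers of further cell types also differed between the days, against 10.3% of all genes called. Of 12 stem and progenitor cell markers 4 moved upwards and 1 downwards (41.7% called), and of 10 megakaryocyte and platelet markers 2 moved upwards (20%). Of 11 natural killer cell markers 3 moved downwards (27.3%), among them Gzma and Eomes, given above as killing and effector genes. The median effect of the 11 was 0.44 at day 10 and -0.60 at day 14. Natural killer markers summed to 532 to 746 CPM in BMF-day10 and 664 to 837 in BAR-day10. At day 14 the sums were 644 to 712 CPM in BMF and 672 to 714 in BAR. Among 10 markers of CD4 and regulatory T cells 2 moved upwards and 1 downwards (30%). Tnfrsf4, given above as a costimulatory receptor, was 1 of the 2. Among 17 dendritic cell markers 1 moved downwards (5.88%, below the share of all genes). B and plasma cell markers had 0 of 17 called by edgeR, with 2 at an unadjusted p under 0.05, 2 by DESeq2 and 0 by limma voom. Stroma and endothelium markers had 0 of 12 called by edgeR, with 3 at an unadjusted p under 0.05, 0 by DESeq2 and 0 by limma voom.

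Cytosolic ribosomal protein genes were called lower with BAR in 25 of 70 and higher in 1 at day 10 (7.94% and 6.49% of all genes), and lower in 16 and higher in 1 at day 14 (12.2% and 12.9%). Their median effect was -0.25 at day 10 and -0.36 at day 14, on the log2 scale.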
